A study of Mus musculus with 2 samples.

Results

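The genes described here are the integrin and laminin chains, chosen by symbol (integrin alpha and beta chains, and laminin alpha, beta and gamma chains) among the genes listed in both files. There were 36 of them among 23123 gene symbols, 25 integrin and 11 laminin chains. They were split by the cells each chain is best known from into epithelial, widely expressed, leukocyte and platelet, and mesenchymal or vascular chains, with 2 laminin chains of restricted tissues apart. The RNA came from the epithelial cells of the thymic medulla (mTEC), which express proteins of many other organs so that self-reactive T cells can be removed. MHC class II high cells (mTEChi) and MHC class II low cells (mTEClo) were obtained by cell sorting from thymi pooled over wild-type (WT) B6 mice of unstated age, and each group gave 1 library of poly(A)-selected RNA. Paired reads of 100 bases were made for mTEChi and single reads of 50 bases for mTEClo, so read type and group cannot be told apart. No test was made, since the groups have no replicates and no difference could be checked against a spread between libraries.

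Integrins are cell surface receptors made of 1 alpha and 1 beta chain that tie the cytoskeleton to the extracellular matrix or to other cells. Laminins are secreted trimers of 1 alpha, 1 beta and 1 gamma chain that form the sheet-like core of basement membranes. In epithelia, a trimer that holds Lama3 and Lamb3 anchors basal cells through the integrin pair of Itga6 and Itgb4 in hemidesmosomes, while the trimer of Lama5, Lamb1 and Lamc1 is a general component of epithelial and vascular basement membranes. In the thymus, basement membranes line the capsule, the septa and the vessels, and leukocyte integrins guide the contact of thymocytes with epithelial and dendritic cells.

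Levels are RPKM, a read number scaled to the length of the transcript and to the size of the library, as deposited by the authors, so chains of different length can be compared within a library. A change is log2((mTEChi + 1)/(1.21 × mTEClo + 1)), where the factor sets the median ratio of well-expressed genes to 0. A change of at least 2-fold (1 on this scale) was called higher or lower when the mean of both libraries was at least 0.5 RPKM. The pseudocount of 1 RPKM understates changes at low levels. Levels and their sums are printed as RPKM without the factor of 1.21. Of the 15590 genes that passed this filter, 4 were listed at 0 in mTEChi and 829 in mTEClo. Whether such a 0 is a failed estimate was not tested, and it bears on Lama1, Itgad and Itga11 among the chains. The files imply about 114000000 reads in mTEChi and about 21000000 in mTEClo. Counting intervals (95%, exact) were computed on reads recovered from these depths, without the pseudocount, and cover counting error only. Such an interval can therefore lie beyond the change printed beside it.

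Cell identity was read from marker lists, by their summed RPKM. The counts of marker genes past 2-fold stand beside 16.1% higher in mTEChi and 9.35% lower of all genes that passed the filter. Thymic epithelial markers summed to 4113 RPKM in mTEChi and 3763 RPKM in mTEClo over 10 genes, with 3 genes 2-fold higher in mTEChi and 2 lower. Epcam, the epithelial adhesion gene of that list, had 198 RPKM in mTEChi and 127 RPKM in mTEClo, and Krt5, a keratin of basal epithelium, had 448 RPKM in mTEChi and 770 RPKM in mTEClo, a change of -1.05. Fibroblast and pericyte markers summed to 197 RPKM in mTEChi and 946 RPKM in mTEClo over 11 genes. Among them, 8 were 2-fold lower in mTEChi and 1 was 2-fold higher. The higher one was Rgs5, with 126 RPKM in mTEChi and 49.1 RPKM in mTEClo (1.07). Pdgfrb and Cspg4 were within 2-fold (-0.21 and -0.15). The lower sum thus does not hold for every gene of the list and does not tell fibroblasts and pericytes apart. Endothelial markers summed to 18.7 RPKM in mTEChi and 146 RPKM in mTEClo, and 8 of 8 were 2-fold lower in mTEChi (7 of 8 without scaling). General leukocyte markers went the other way, with 385 RPKM in mTEChi and 128 RPKM in mTEClo, and 3 of 5 were 2-fold higher. Laptm5 made up much of both sums, with 240 RPKM in mTEChi and 73.0 RPKM in mTEClo. Ptprc, the first gene of that list, had 1.17 RPKM in mTEChi and 0.989 RPKM in mTEClo (-0.02). Platelet and megakaryocyte markers summed to 31.0 RPKM in mTEChi and 10.1 RPKM in mTEClo over 8 genes, with 3 of them listed at 0 in mTEClo. T lineage markers summed to 19.1 RPKM in mTEChi and 13.1 RPKM in mTEClo over 8 genes, with 5 changes above 0 and 3 below. B cell markers summed to 23.7 RPKM in mTEChi and 11.3 RPKM in mTEClo over 5 genes. In bulk RNA, fewer cells of a type and less RNA per cell cannot be told apart.

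**Figure D1:**
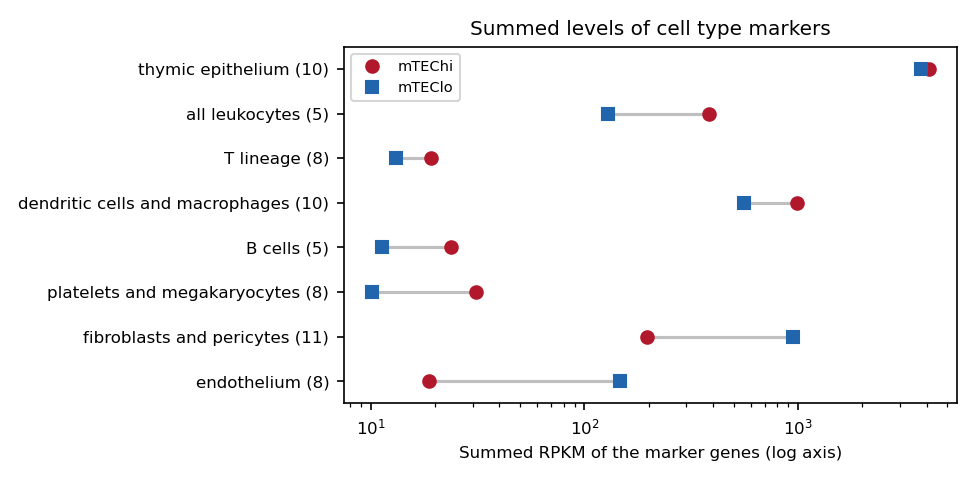
Summed RPKM (log axis) of each cell type marker list in the mTEChi library (circles) and the mTEClo library (squares), with the number of measured genes in parentheses. Fibroblast and endothelial sums are lower in mTEChi (197 against 946 RPKM and 18.7 against 146 RPKM), and the leukocyte and platelet sums are higher.

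Among the 36 chains, laminins and integrins behaved differently as families. Of the 11 laminin chains, 9 passed the level filter, and 6 of these were at least 2-fold lower in mTEChi and 0 were 2-fold higher. Of the 25 integrin chains, 20 passed, and 2 were higher and 2 lower. The summed laminin level was 56.0 RPKM in mTEChi and 149 RPKM in mTEClo, and the summed integrin level was 139 RPKM in mTEChi and 148 RPKM in mTEClo. Among all genes that passed the filter, 16.1% were 2-fold higher in mTEChi and 9.35% were 2-fold lower. Of those called in either direction 63.3% were higher, a share that was 74.9% without scaling and 80.4% with the upper quartiles of the genes above 0 in each library set equal. The same share was 53.6% with genes at 0 in either library left out and 55.1% with a mean of 5 RPKM or more. The median change was -1.41 over all 11 laminin chains and 0.20 over all 25 integrin chains, beside 0.04 over all genes. Under each scaling tried 6 laminin chains were 2-fold lower and 0 higher, and the laminin median lay between -1.41 and -1.02. These scalings put the median of the genes that passed between 0.03 and 0.37. These chains have transcripts of 1935 to 11388 bases. Among passing genes with transcripts of 4000 bases or more, 7.46% were 2-fold higher and 8.35% were 2-fold lower.

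**Figure D2:**
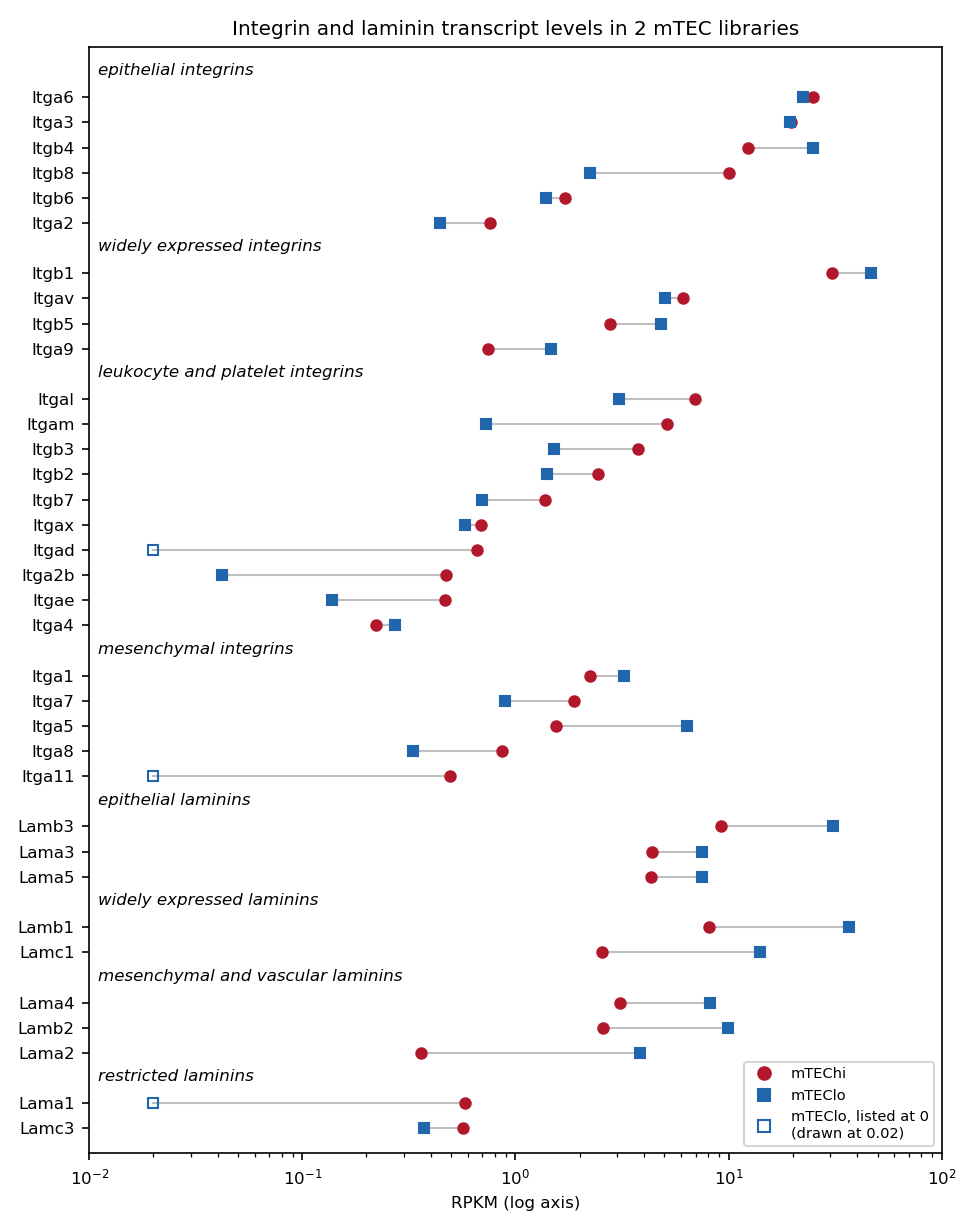
RPKM (log axis) of 35 of the 36 integrin and laminin chains in the mTEChi library (circles) and the mTEClo library (squares), 1 library each, grouped by class and sorted by mTEChi level. Open squares mark the 3 genes listed at 0 in mTEClo, and 8 of the 10 laminin chains shown have the circle left of the square.

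Promoter stretches are shown for 4 of the 10 chains past 2-fold, the 2 higher integrins and the beta chains of the 2 main laminin trimers, to set genes of opposite direction side by side. Of the 36 chains 22 had an entry in the RefSeq promoter table, and 7 of the 10 past 2-fold. Each stretch is the 250 bases before the annotated start on the gene's strand (RefSeq, GRCm38.p6, a later build than the mm9 that the submitters' processing notes name). They lie at chr12:119238277-119238526 on the minus strand, chr7:128062390-128062639 on the plus strand, chr12:31265043-31265292 on the plus strand and chr1:193301744-193301993 on the plus strand, the last being the more upstream of 2 annotated starts. Capitals mark matches, on either strand, to the GC box GGGCGG or the ETS core GAGGAA.
Itgb8: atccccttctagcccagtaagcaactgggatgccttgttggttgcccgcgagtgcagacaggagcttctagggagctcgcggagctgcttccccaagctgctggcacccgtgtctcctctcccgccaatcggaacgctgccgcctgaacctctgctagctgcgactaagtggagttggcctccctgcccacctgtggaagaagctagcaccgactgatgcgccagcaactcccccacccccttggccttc
Itgam: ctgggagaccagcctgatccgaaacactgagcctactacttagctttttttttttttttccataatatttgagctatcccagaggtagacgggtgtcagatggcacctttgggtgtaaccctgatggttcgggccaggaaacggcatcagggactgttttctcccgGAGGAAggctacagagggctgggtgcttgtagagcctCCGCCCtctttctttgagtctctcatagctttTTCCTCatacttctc
Lamb1: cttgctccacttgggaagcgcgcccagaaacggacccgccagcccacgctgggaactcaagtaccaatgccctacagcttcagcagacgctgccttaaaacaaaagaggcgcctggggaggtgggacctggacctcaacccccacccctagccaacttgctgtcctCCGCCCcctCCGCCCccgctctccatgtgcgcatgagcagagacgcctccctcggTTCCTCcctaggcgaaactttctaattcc
Lamb3: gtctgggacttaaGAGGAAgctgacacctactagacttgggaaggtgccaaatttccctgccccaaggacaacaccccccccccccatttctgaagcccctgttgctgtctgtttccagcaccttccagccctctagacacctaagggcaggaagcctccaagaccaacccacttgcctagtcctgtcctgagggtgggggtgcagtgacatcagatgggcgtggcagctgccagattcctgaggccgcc

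The stretches differ in what they hold. Lamb1 has 2 GC boxes, 84 and 75 bases before the start counted from the first base of the match, and an ETS core at 29 bases. Itgam, a myeloid gene, has ETS cores at 84 and 15 bases and a GC box at 47 bases. Lamb3 has 1 ETS core at 237 bases, and Itgb8 has no match. The TATA box TATAAA and the AP-1 site TGANTCA were also searched on both strands and have no match in these 4, and none of the matches shown overlap. Over all 32851 promoters of the table, 32.7% hold the GC box, 23.3% the ETS core, 12.4% the TATA box and 6.75% the AP-1 site. A match is a run of letters and not a shown binding site. The GC content was 62.4% for Itgb8, 49.6% for Itgam, 62.0% for Lamb1 and 58.8% for Lamb3, beside a median of 52.4% over all promoters.

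The epithelial laminin receptors were the most abundant integrin chains together with Itgb1. Itga6, the alpha chain of the hemidesmosomal receptor, had 24.9 RPKM in mTEChi and 22.3 RPKM in mTEClo, a change of -0.11. Itga3, which pairs with Itgb1 in another laminin receptor, had 19.6 RPKM in mTEChi and 19.5 RPKM in mTEClo, a change of -0.26. Both stayed within 2-fold in every setting, with signs that depend on the scaling (from -0.11 to 0.31 for Itga6 and from -0.27 to 0.16 for Itga3). Itgb4, the hemidesmosomal beta chain, had 12.3 RPKM in mTEChi and 25.0 RPKM in mTEClo. Its change of -1.22 was past 2-fold, and its counting interval ran from -1.35 to -1.23. Without scaling the change of Itgb4 was -0.96, and -0.80 with the upper quartiles of the genes above 0 in each library set equal, so this call rests on the scaling.

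The balance of Itga6 to its partner does not depend on scaling. Itga6 over Itgb4 was 2.02 in mTEChi (counting interval 1.96 to 2.08) and 0.892 in mTEClo (0.842 to 0.944). Thus Itga6 transcripts were in excess of Itgb4 transcripts per length in mTEChi and slightly fewer in mTEClo. Itgb1, the common beta chain that pairs with many alpha chains, was the highest member in both libraries, with 30.6 RPKM in mTEChi and 46.3 RPKM in mTEClo, a change of -0.85. Itga6 over Itgb1 was 0.815 in mTEChi and 0.480 in mTEClo, and Itga3 over Itgb1 was 0.640 in mTEChi and 0.421 in mTEClo. Itgb1 held 47.0% of the summed beta chain level in mTEChi and 55.6% in mTEClo, and Itgb4 held 19.0% in mTEChi and 29.9% in mTEClo.

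Itgb8 was the epithelial integrin chain that was 2-fold higher in mTEChi. It pairs with Itgav in a receptor that binds latent TGF-beta. It had 10.1 RPKM in mTEChi and 2.23 RPKM in mTEClo, a change of 1.59 with a counting interval of the ratio from 1.76 to 2.06. Its share of the summed beta chain level was 15.5% in mTEChi and 2.67% in mTEClo. Its partner Itgav had 6.09 RPKM in mTEChi and 5.05 RPKM in mTEClo, and Itgb6, the epithelial beta chain that also pairs with Itgav and binds latent TGF-beta, had 1.70 RPKM in mTEChi and 1.39 RPKM in mTEClo. Itgb8 over Itgb6 was 5.93 in mTEChi (5.55 to 6.35) and 1.60 in mTEClo (1.32 to 1.96), a ratio that no scaling touches. Itgb8 over Itgav was 1.66 in mTEChi and 0.440 in mTEClo. With a pseudocount of 5 RPKM the change of Itgb8 was 0.97. Itgb5, a further partner of Itgav that binds vitronectin, had 2.78 RPKM in mTEChi and 4.81 RPKM in mTEClo (-0.85), and Itga2, a collagen receptor chain of epithelia and platelets, had 0.760 RPKM in mTEChi and 0.443 RPKM in mTEClo. Itga9, whose pair with Itgb1 binds tenascin C among others, had 0.743 RPKM in mTEChi and 1.47 RPKM in mTEClo (-0.67).

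**Figure D3:**
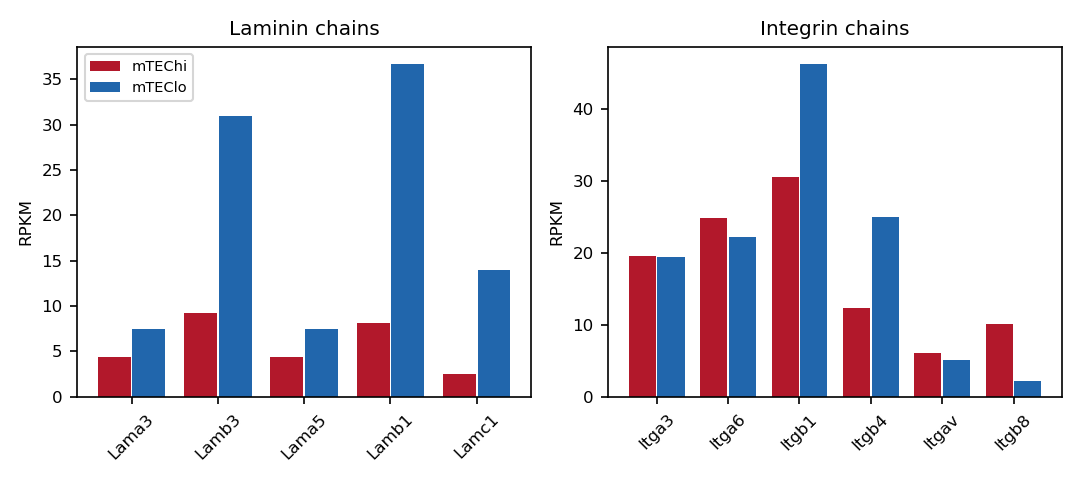
RPKM of chains that assemble with each other, in the mTEChi library (left bar of each pair) and the mTEClo library (right bar), 1 library each. Lamb1 and Lamb3 are the highest laminin bars in mTEClo (36.7 and 30.9 RPKM) and are lower in mTEChi (8.11 and 9.22 RPKM), and Itgb8 is the higher bar in mTEChi (10.1 against 2.23 RPKM).

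The epithelial laminin chains had a median change of -0.91 over 4, and 1 of them was 2-fold lower in mTEChi. Lamb3, the beta chain found in the hemidesmosomal laminin, had 9.22 RPKM in mTEChi and 30.9 RPKM in mTEClo, a change of -1.91 with a counting interval from -2.09 to -1.95. Lama3, the alpha chain of that trimer, had 4.36 RPKM in mTEChi and 7.50 RPKM in mTEClo (-0.91). Lama5, the alpha chain of most epithelial basement membranes, had 4.34 RPKM in mTEChi and 7.48 RPKM in mTEClo (-0.91). Among the settings tried, Lama3 and Lama5 passed 2-fold only with a pseudocount of 0.1 RPKM, at -1.04 each. Without a pseudocount the scaled log2 ratio was -1.06 for each, with a counting interval from -1.14 to -0.98. With neither scaling nor pseudocount, mTEClo over mTEChi was 1.72 for Lama3 and 1.73 for Lama5, within 2-fold. With the pseudocount kept and no scaling, the change was -0.67 for each. Whether Lama3 and Lama5 pass 2-fold thus rests on both the pseudocount and the scaling.

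Within the hemidesmosomal laminin, Lamb3 over Lama3 was 2.12 in mTEChi (counting interval 2.03 to 2.20) and 4.12 in mTEClo (3.87 to 4.38), a ratio that no scaling touches. The Lama3 gene makes a short and a long transcript, and its single line in the files has a length of 10548 bases, so reads of a short form would be spread over that length.

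Both widely expressed laminin chains were 2-fold lower in mTEChi. Lamb1, the beta chain of most laminins, had 8.11 RPKM in mTEChi and 36.7 RPKM in mTEClo, a change of -2.32 with a counting interval from -2.51 to -2.39. Lamc1, the gamma chain of most laminins, had 2.54 RPKM in mTEChi and 14.0 RPKM in mTEClo (-2.34, counting interval from -2.82 to -2.65). Lamb1 was the second highest member in mTEClo and the eighth in mTEChi. Lama5 over Lamc1 was 1.71 in mTEChi and 0.534 in mTEClo, so the order of these partner chains differed between the libraries.

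The 3 mesenchymal and vascular laminin chains were all 2-fold lower in mTEChi. Lama4, the alpha chain of vessel walls, had 3.10 RPKM in mTEChi and 8.21 RPKM in mTEClo (-1.41). Lamb2, known from the kidney filter and the neuromuscular junction, had 2.58 RPKM in mTEChi and 9.92 RPKM in mTEClo (-1.86). Lama2, the chain of muscle and nerve sheaths, had 0.359 RPKM in mTEChi and 3.84 RPKM in mTEClo (-2.05). Without the pseudocount the log2 ratio of Lama2 was -3.69, beside -2.45 for Lamb1 and -2.74 for Lamc1. Lamb1, Lamc1, Lamb2 and Lamb3 were past 2-fold in every setting tried, whereas Lama4 and Lama2 were within 2-fold with a pseudocount of 5 RPKM (-0.88 and -0.85). The fibroblast and endothelial marker sums given above moved in the same direction as these chains, with Pdgfra at 0.369 RPKM in mTEChi and 5.01 RPKM in mTEClo and Pecam1 at 4.79 RPKM in mTEChi and 59.2 RPKM in mTEClo, and no marker of either list was at 0 in mTEClo or mTEChi. Their part in the laminin levels was not tested.

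Of the 2 laminin chains of restricted tissues, neither passed the filter. Lama1, the chain of early embryonic basement membranes, had 0.579 RPKM in mTEChi and was listed at 0 in mTEClo. Lamc3, known from brain and retina, had 0.565 RPKM in mTEChi and 0.371 RPKM in mTEClo.

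Mesenchymal integrins had no common direction, and 1 of the 4 that passed the filter was past 2-fold. Itga5, whose pair with Itgb1 is the main fibronectin receptor, had 1.55 RPKM in mTEChi and 6.40 RPKM in mTEClo, a change of -1.78 with a counting interval from -2.47 to -2.16. With a pseudocount of 5 RPKM the change of Itga5 was -0.96. Itga1, a collagen receptor chain of smooth muscle and vessels, had 2.24 RPKM in mTEChi and 3.23 RPKM in mTEClo (-0.60). Itga7, the laminin receptor chain of muscle, had 1.88 RPKM in mTEChi and 0.893 RPKM in mTEClo (0.47). Itga8, a chain of mesenchyme that binds nephronectin, had 0.862 RPKM in mTEChi and 0.331 RPKM in mTEClo (0.41). Itga11, a collagen receptor chain of fibroblasts, had 0.492 RPKM in mTEChi and was listed at 0 in mTEClo, where the fibroblast markers were higher. The class median of 0.41 over 5 chains, also with Itga11 at the bound of 3 reads, was -0.09 without Itga11.

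Of the 6 leukocyte and platelet integrins that passed the filter 1 was 2-fold higher in mTEChi, a share near the 16.1% of all passing genes. The change was above 0 for 8 of the 10 chains, whether or not they passed. Of all 23123 genes, 12673 were above 0 and 8194 below, and the rest had a change of 0. Without scaling the change was above 0 for 9 of the 10 chains, beside 14717 of 23123 genes above 0 and 6151 below. The 10 chains summed to 22.2 RPKM in mTEChi and 8.44 RPKM in mTEClo. Itgam, the CD11b chain of myeloid cells, had 5.12 RPKM in mTEChi and 0.726 RPKM in mTEClo, a change of 1.70 with a counting interval of the ratio from 2.20 to 2.90. In a later annotation 68.7% of the exonic bases of Itgam are shared with the gene model Gm49368 on the same strand, so the split of its reads is uncertain. With a pseudocount of 5 RPKM the change of Itgam was 0.78. Itgal, the alpha chain of LFA-1 on lymphocytes, had 6.97 RPKM in mTEChi and 3.06 RPKM in mTEClo (0.76). Itgal passed 2-fold only with the upper quartiles of the genes above 0 in each library set equal, at 1.09.

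The partner chain of both, Itgb2, had 2.45 RPKM in mTEChi and 1.40 RPKM in mTEClo (0.35). Itgam over Itgb2 was 2.09 in mTEChi (1.93 to 2.26) and 0.517 in mTEClo (0.376 to 0.722), while Itgal over Itgb2 was 2.85 in mTEChi (2.64 to 3.07) and 2.18 in mTEClo (1.73 to 2.81). Itgax, the CD11c chain of dendritic cells, had 0.690 RPKM in mTEChi and 0.583 RPKM in mTEClo (-0.01). Itgad, a further partner of Itgb2, had 0.663 RPKM in mTEChi and was listed at 0 in mTEClo. The myeloid marker list, which holds Itgax and Itgam itself, summed to 985 RPKM in mTEChi and 561 RPKM in mTEClo. Of its 9 passing genes 7 were 2-fold higher, beside 16.1% of all passing genes. Lyz2, a lysozyme of macrophages, had 493 RPKM in mTEChi and 133 RPKM in mTEClo. Cst3, a large part of both myeloid sums, had 444 RPKM in mTEChi and 420 RPKM in mTEClo (-0.19). The part of leukocyte RNA in the levels of these chains was not tested.

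Itgb3, which pairs with Itga2b on platelets and with Itgav elsewhere, had 3.75 RPKM in mTEChi and 1.52 RPKM in mTEClo (0.75). Itga2b, the platelet chain, had 0.474 RPKM in mTEChi and 0.0418 RPKM in mTEClo, about 3 reads in mTEClo, and the counting interval of its log2 ratio ran from 1.66 to 5.52. Itgb7, a beta chain of gut-homing lymphocytes, had 1.37 RPKM in mTEChi and 0.698 RPKM in mTEClo (0.36). Its partner Itgae, which binds E-cadherin, had 0.465 RPKM in mTEChi and 0.137 RPKM in mTEClo. Itga4, which binds Vcam1 with Itgb1 and Madcam1 with Itgb7, was the lowest member in mTEChi, with 0.222 RPKM against 0.273 RPKM in mTEClo. The class median was 0.43 over 10 chains, also with Itgad at the bound of 3 reads.

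**Figure D4:**
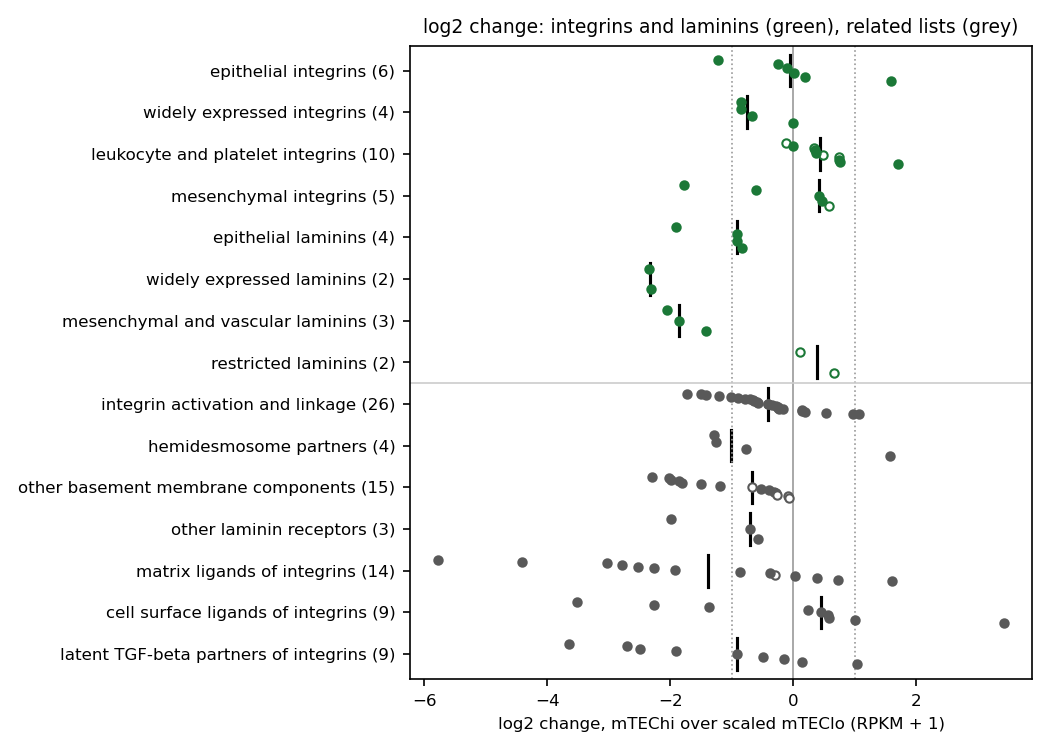
log2 change of mTEChi over scaled mTEClo (RPKM plus 1) for each chain by class (upper, green) and for each gene of the related lists (lower, grey), with the number of measured genes in parentheses. Black bars are medians, open points did not pass the level filter, dotted lines mark 2-fold, and the laminin classes other than the restricted chains lie left of 0.

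The other basement membrane components had the same direction as the laminins. All 15 had a change below 0, and of the 11 that passed the filter 7 were 2-fold lower and 0 higher (median -0.67 over the 15). Of all genes that passed, 9.35% were 2-fold lower and 16.1% higher. The 15 include genes that did not pass the filter. Of all 23123 genes, passing or not, 8194 had a change below 0 and 12673 above. Under each scaling tried all 15 stayed below 0, with 6 or 7 of them 2-fold lower. Col4a2, a chain of the collagen network of basement membranes, had 9.78 RPKM in mTEChi and 43.1 RPKM in mTEClo (-2.30). Hspg2, the proteoglycan perlecan, had 3.49 RPKM in mTEChi and 14.3 RPKM in mTEClo (-2.02), and Nid1, which links laminin to the collagen network, had 3.27 RPKM in mTEChi and 11.6 RPKM in mTEClo (-1.81). These genes are made by vessels and fibroblasts as well as by epithelia, and the fibroblast and endothelial sums given above were lower in mTEChi too, whose part here was not tested.

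Hemidesmosome partners did not move as a unit. Col17a1, the transmembrane collagen that binds the hemidesmosomal laminin, had 9.88 RPKM in mTEChi and 2.20 RPKM in mTEClo, a change of 1.57. Cd151, a tetraspanin that binds laminin receptors, had 30.3 RPKM in mTEChi and 62.2 RPKM in mTEClo (-1.28), and Dst, a linker to keratin filaments, had a change of -1.26. Plec, the other keratin linker, had 10.4 RPKM in mTEChi and 15.2 RPKM in mTEClo (-0.77). Of the 4 partners 1 was 2-fold higher and 2 were lower, beside 16.1% higher and 9.35% lower of all passing genes. With the upper quartiles of the genes above 0 in each library set equal, 0 of the 4 were 2-fold lower. Among other laminin receptors, Bcam was 2-fold lower, with 8.98 RPKM in mTEChi and 32.1 RPKM in mTEClo, and Dag1, dystroglycan, had 14.8 RPKM in mTEChi and 20.3 RPKM in mTEClo (-0.70).

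Of 26 genes that activate integrins or link them to actin, 1 was 2-fold higher in mTEChi and 5 were lower, with a median of -0.41. Among all genes that passed the filter, 16.1% were 2-fold higher and 9.35% lower. Without scaling 2 of the 26 were higher and 3 lower. Fermt1, the epithelial kindlin, had 20.2 RPKM in mTEChi and 8.11 RPKM in mTEClo, a change of 0.97 just inside 2-fold, whereas Fermt2, the widely expressed kindlin, had 5.45 RPKM in mTEChi and 16.9 RPKM in mTEClo (-1.73). Ptk2b, a kinase related to the focal adhesion kinase, had 29.4 RPKM in mTEChi and 11.2 RPKM in mTEClo (1.06). Zyx, zyxin of focal adhesions, had 14.6 RPKM in mTEChi and 35.8 RPKM in mTEClo (-1.50).

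Of 13 passing matrix ligands 7 were 2-fold lower in mTEChi and 1 was higher, with a median of -1.39 over 14. These counts stand beside 9.35% lower and 16.1% higher of all passing genes. Postn, periostin, had 3.48 RPKM in mTEChi and 202 RPKM in mTEClo (-5.77), and Col1a2, a chain of type I collagen, had 1.39 RPKM in mTEChi and 41.2 RPKM in mTEClo (-4.41). Both are fibroblast markers, and 3 of the 7 lower genes are in the fibroblast marker list, whose sum was 197 RPKM in mTEChi and 946 RPKM in mTEClo. The higher one was Spp1, osteopontin, with 48.4 RPKM in mTEChi and 12.7 RPKM in mTEClo (1.60). Ccn1, a matrix protein that binds integrins, had 46.4 RPKM in mTEChi and 319 RPKM in mTEClo (-3.03), and Fn1, fibronectin, had 11.4 RPKM in mTEChi and 17.8 RPKM in mTEClo (-0.86). Of 9 cell surface ligands 2 were higher and 3 lower, with a median of 0.44, beside the same shares of all passing genes. The lower ones were Jam2, Icam2 and Jam3. Jam2, a junction protein of endothelium, had 0.282 RPKM in mTEChi and 11.3 RPKM in mTEClo (-3.51), and Icam2, a ligand of Itgal with Itgb2 on endothelium, had 1.98 RPKM in mTEChi and 11.02 RPKM in mTEClo (-2.26). Jam3, a relative of Jam2 named after its value was seen, had a change of -1.37. The endothelial marker sum was 18.7 RPKM in mTEChi and 146 RPKM in mTEClo, and the part of such cells in the ligand levels was not tested. Madcam1, the ligand of Itga4 with Itgb7, had 17.1 RPKM in mTEChi and 0.573 RPKM in mTEClo (3.42). Icam1, the ligand of Itgal with Itgb2, had 206 RPKM in mTEChi and 125 RPKM in mTEClo (0.44), and Vcam1 had 95.4 RPKM in mTEChi and 66.4 RPKM in mTEClo (0.25).

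Genes around the latent TGF-beta that Itgb6 and Itgb8 receptors bind had 1 of 9 higher and 4 lower, with a median of -0.91. Of all passing genes 16.1% were higher and 9.35% lower. The higher one was Tgfb2, with 6.17 RPKM in mTEChi and 2.07 RPKM in mTEClo (1.04). It is in the list as a TGF-beta gene and not as a shown ligand of these receptors. Tgfb3 had 7.29 RPKM in mTEChi and 12.0 RPKM in mTEClo (-0.91). Tgfb1, whose latent form is a ligand of these receptors, had 5.80 RPKM in mTEChi and 7.09 RPKM in mTEClo (-0.49). Ltbp4, a matrix protein that holds latent TGF-beta, had 3.07 RPKM in mTEChi and 41.3 RPKM in mTEClo (-3.64).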

How the data were processed

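Poly(A)-selected RNA of sorted mTEChi and mTEClo cells from pooled thymi was sequenced into 1 non-directional library each, per the labels' protocols. The authors deposited RPKM values per RefSeq transcript line. CASAVA, bedtools, Bowtie 1.0.0 and the build mm9 appear in the submitters' processing notes, with no role given. The sources used here do not give the handling of reads shared by isoforms. Lines of the same gene carry nearly the same value (Itgal, 4 lines from 6.96 to 6.97 RPKM in mTEChi). Without strand, reads of overlapping genes cannot be told apart.

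Of 30794 lines, 30216 were named by a RefSeq table (GRCm38.p6), 180 by GENCODE M21, and 398 were left out. A gene's value is its line with the highest mean RPKM. The mTEClo values were multiplied by 1.21 (0.27 on the log2 scale), the median ratio of 5167 genes that averaged at least 10 RPKM. Depth was recovered from RPKM times GENCODE length: of lines with 1 to 10 reads, 77.5% of 1635 in mTEChi and 66.5% of 1051 in mTEClo lay within 0.1 of a whole read. A value of 0 has a bound of 3 reads, and intervals are Clopper-Pearson. The members and lists were chosen with earlier results of these data known. Every chain may be named, and of each other list up to 5 genes, those that define it or changed most, and of marker lists up to 3 in list order. Rgs5, Pdgfrb, Cspg4 and Cst3 were named outside this order, after their values were seen. Itga10 was not analysed here, and the values of 1 chain are not reported here. The steps were tested on simulated data. Alternatives were other scalings, pseudocounts, filters, isoform choices and treatments of 0. Tools were numpy 2.4.6, scipy 1.17.1, pandas 2.3.3 and matplotlib 3.10.9 under Python 3.11.15.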

Additional observations from a re-analysis of the deposited data

How the results depend on the processing

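No paired analysis was possible because each group has 1 library, and for the same reason none could be left out. The counts of chains 2-fold higher and lower in mTEChi, 2 and 8 in the report, were 0 and 5 with a pseudocount of 5 RPKM. One chain was higher (1) among genes averaging at least 5 RPKM, and 4 were higher with the upper quartiles of the genes above 0 in each library set equal, a setting added after the data were seen. The count of lower chains was 12 with a pseudocount of 0.1 RPKM. Over all genes, 2508 higher and 1457 lower became 877 and 648 with a pseudocount of 5 RPKM, and 1010 and 822 with a mean of 5 RPKM or more. With the added quartile setting 838 were lower. Of the related lists 6 genes were higher, and 2 with a pseudocount of 5 RPKM. Class medians (epithelial, widely expressed, and mesenchymal and vascular laminins, then epithelial and widely expressed integrins) were -0.91, -2.33, -1.86, -0.05 and -0.76. Without scaling they were -0.67, -2.07, -1.61, 0.17 and -0.54. With equal sums the first 4 were -0.78, -2.19, -1.72 and 0.07. With the added quartile setting they were -0.53, -1.91, -1.46, 0.29 and -0.42. With a pseudocount of 0.1 RPKM they were -1.04, -2.56 and -2.17 for laminins and -0.95 for widely expressed integrins, and 0.95 for leukocyte integrins. With 5 RPKM they were -0.66, -1.73, -0.88 and, for widely expressed integrins, -0.36. With a mean of 5 RPKM or more, mesenchymal and vascular laminins had -1.64, epithelial integrins -0.18 and widely expressed integrins -0.43. Mesenchymal integrins had -0.09 without genes at 0, where fewer chains enter. With the median of each class of transcript length subtracted, also an added setting, epithelial laminins had -0.83. The causes of the other differences were not tested. Depth limits the low chains, with 3 reads behind Itga2b and 11 behind Itgae in mTEClo.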

Other observations

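Genes that neighbour each other on the chromosome did not share their change. In the RefSeq table Itgam, Itgax and Itgad follow each other on chromosome 7 among protein-coding genes, and Itgam had 5.12 RPKM in mTEChi and 0.726 RPKM in mTEClo, while Itgax had 0.690 RPKM in mTEChi and 0.583 RPKM in mTEClo. Itga2 and Itga1 are adjacent on chromosome 13, with changes of 0.20 and -0.60.

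The 3 chains listed at 0 in mTEClo had reads in mTEChi, and whether each 0 is a failed estimate was not tested. Lama1 had about 631 reads in mTEChi, Itgad about 301 and Itga11 about 280. At the depth and scaling of mTEClo these correspond to about 95.7, 45.6 and 42.5 reads, where 0 were listed. Low chains listed above 0 differed in how near they came to such numbers. Itga8, with 86.9 expected, had about 40 reads in mTEClo, and Itgax, with 48.4 expected, had about 49. Itga4, with 37.6 expected, had about 56 reads in mTEClo. Itgae, with 31.1 expected, had about 11, and Itga2b, with 28.2 expected, had about 3. The expected numbers assume the same level in both libraries after scaling.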
